A study of Rattus norvegicus with 12 samples.

Results

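Macrophages of the rat heart were followed through 10 marker genes in RNA-seq of left ventricle: Cd163, Mrc1, Lyve1 and Timd4, which are used to mark macrophages resident in tissue, Cd68 and Adgre1, which mark macrophages broadly, and Cx3cr1, Trem2, Gpnmb and Marco, which mark monocyte-derived, lipid-handling or lung macrophages. The genes were chosen by symbol, with earlier results of these data known. Of the 10 symbols, 9 had a line among the 34599 genes of the count table and 8 had enough counts to be tested, out of 15101 genes tested in all. Timd4 was not analysed here, and Marco was too low to be tested.

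Total RNA came from the infarct region of the left ventricle of 12 male Sprague-Dawley rats, 1 day after surgery, with 4 rats per group. Sham rats had the chest opened while the left anterior descending artery was left untied, so their left ventricle held no infarct. MI rats had that coronary artery ligated. iCarP+/Light+ rats had the same ligation and were then given Chlorella, a green alga that releases oxygen in light, by injection into the infarct, with the photonic patch (iCarP) glued to the epicardium and light delivered through it. Effects of alga, adhesive, patch and illumination cannot be told apart in these rats, and iCarP+/Light- rats were not analysed here. The labels name no batch, so groups and any batch in step with them cannot be told apart. The tissue was bulk myocardium and not sorted cells, so a gene's level sums over all cells of the piece taken.

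In a healthy heart, resident macrophages that were largely seeded before birth take up debris and haemoglobin and support muscle and vessels. After an infarct, many of them are lost from the dying tissue, neutrophils enter first, and monocytes follow and turn into macrophages that digest dead cells and their lipids. The 10 genes encode surface receptors and lysosomal proteins of these steps, and several of them are also used by other cells, such as Lyve1 in lymphatic endothelium.

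The libraries held 14064414 to 17136958 counts each. Mitochondrial transcripts took 22.8 to 28.9% of the counts in Sham rats, 8.52 to 11.5% in MI rats and 7.14 to 14.2% in treated rats, and TMM scaling, which corrects for such differences in composition, had factors of 0.784 to 0.856, 1.15 to 1.26 and 0.960 to 1.05. All 9 tested cardiomyocyte markers fell with MI (median log2 fold change -3.21), where 33.6% of all genes tested fell. Their summed level was 33755 to 37349 CPM in Sham against 2075 to 4676 in MI rats. In bulk tissue, fewer cells of a type and less RNA per cell cannot be told apart, and the same holds for a rise. MI rat 1 stood apart from the other MI rats, with 4.07 times their mean of Cd163 and 2.16 times their mean of Mrc1, so results that rest on it are given with and without it. Levels are in CPM (counts scaled to the TMM-adjusted size of each library), and 3 counts, taken as the floor of a library, are 0.144 to 0.228 CPM.

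The promoters of Gpnmb, Cd68, Cx3cr1, Trem2 and Adgre1 are shown: Gpnmb, Cd68 and Cx3cr1 rose most with MI, and in iCarP+/Light+ rats Cx3cr1 and Trem2 moved one way and Adgre1 the other. Each runs from 250 bases before to 50 bases after the start in RefSeq (build GRCr8), 5′ to 3′ in the direction of the gene. Capitals mark matches, on either strand, to GAGGAA (the core of PU.1 sites), TGANTCA (AP-1) or TTGCNNAA (C/EBP).
Gpnmb, chr4:79340878-79341177, plus strand: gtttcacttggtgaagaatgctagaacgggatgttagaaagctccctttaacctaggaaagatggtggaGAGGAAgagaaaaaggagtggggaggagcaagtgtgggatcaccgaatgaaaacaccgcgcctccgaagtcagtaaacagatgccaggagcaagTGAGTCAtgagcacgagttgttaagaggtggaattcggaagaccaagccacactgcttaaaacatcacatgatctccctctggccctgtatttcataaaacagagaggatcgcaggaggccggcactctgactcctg
Cd68, chr10:54882392-54882691, minus strand: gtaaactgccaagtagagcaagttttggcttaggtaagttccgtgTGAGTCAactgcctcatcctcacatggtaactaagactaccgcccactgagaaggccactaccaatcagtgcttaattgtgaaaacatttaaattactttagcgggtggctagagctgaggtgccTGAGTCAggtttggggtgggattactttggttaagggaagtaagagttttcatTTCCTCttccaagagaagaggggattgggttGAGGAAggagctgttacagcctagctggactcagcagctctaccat
Cx3cr1, chr8:128677017-128677316, minus strand: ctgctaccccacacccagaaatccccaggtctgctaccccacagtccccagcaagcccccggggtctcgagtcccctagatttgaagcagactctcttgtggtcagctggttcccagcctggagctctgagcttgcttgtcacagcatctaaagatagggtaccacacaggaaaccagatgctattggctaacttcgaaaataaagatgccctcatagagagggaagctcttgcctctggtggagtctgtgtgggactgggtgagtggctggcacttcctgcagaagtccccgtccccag
Trem2, chr9:20151730-20152029, minus strand: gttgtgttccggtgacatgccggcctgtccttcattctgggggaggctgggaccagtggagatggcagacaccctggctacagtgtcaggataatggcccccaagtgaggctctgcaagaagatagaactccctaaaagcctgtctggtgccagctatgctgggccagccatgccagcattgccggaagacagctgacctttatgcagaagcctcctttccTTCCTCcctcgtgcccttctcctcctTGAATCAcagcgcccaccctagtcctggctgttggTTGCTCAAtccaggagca
Adgre1, chr9:2329190-2329489, plus strand: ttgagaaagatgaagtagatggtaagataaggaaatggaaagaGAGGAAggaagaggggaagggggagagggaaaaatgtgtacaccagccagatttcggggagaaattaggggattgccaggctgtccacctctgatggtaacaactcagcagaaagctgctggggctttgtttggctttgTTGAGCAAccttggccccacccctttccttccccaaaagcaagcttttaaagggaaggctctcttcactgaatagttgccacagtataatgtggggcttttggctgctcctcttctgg
PU.1, a factor that macrophages need for their development, has its core letters in the promoters of 6 of the 10 genes, Gpnmb, Cd68, Trem2, Adgre1, Mrc1 and Marco, and in 27.6% of 33469 rat promoters of the same length. The AP-1 letters stand in the promoters of Gpnmb, Trem2 and Cd68, and in 7.33% of all promoters, and the C/EBP letters in those of Trem2 and Adgre1, and in 10.6% of all. TGCTGAC, part of the site of MAF factors, was found in the Timd4 promoter and in 4.44% of all, and CACGTG, the E-box that MITF and TFE factors bind, was in none of the 10 and in 6.42% of all. The Cx3cr1 promoter holds no match to any of the 5 motifs. In Cd68, AP-1 letters stood at -205 and -80 and PU.1 letters at -27 and 4 from the start, and no match overlapped another. Adgre1 lies on the plus strand in GRCr8 and on the minus strand in the count table, and Marco lies on chromosome 13 in GRCr8 and on chromosome 16 in the count table, so its promoter may not belong to the gene whose reads were counted. These matches are descriptions of letters and were not tested for binding.

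Ligation separated the genes into those that rose steeply, those that rose modestly and those whose level was not shown to change. From Sham to MI, 6 of 8 tested genes rose and 0 fell, where 30.2% of all genes tested rose and 33.6% fell. At an unadjusted p below 0.05 edgeR also had 0 lower, and DESeq2 and limma-voom called 0 lower. Their median log2 fold change was 1.97, and that of all genes tested was -0.06. Gpnmb, Cx3cr1 and Cd68 rose most, by 100, 18.3 and 11.5 times, Mrc1, Trem2 and Cd163 rose by 4.40, 3.49 and 2.35 times, and Lyve1 and Adgre1 did not pass the test. Without MI rat 1, 5 of the 8 rose and Cd163 was not called. From MI to iCarP+/Light+, Adgre1 rose and Mrc1, Trem2 and Cx3cr1 fell, which is 1 higher and 3 lower of 8, where 11.6% of all genes tested rose and 2.01% fell. Without MI rat 1, 2 of the 8 were lower and Mrc1 was not called. Over the 8 genes the median log2 fold change was -0.59, against 0.01 over all genes tested. From Sham to iCarP+/Light+, 5 genes rose and Lyve1 fell, where 33.5% of all genes rose and 33.0% fell, with a median of 1.28 against 0.02 over all genes.

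**Figure D1:**
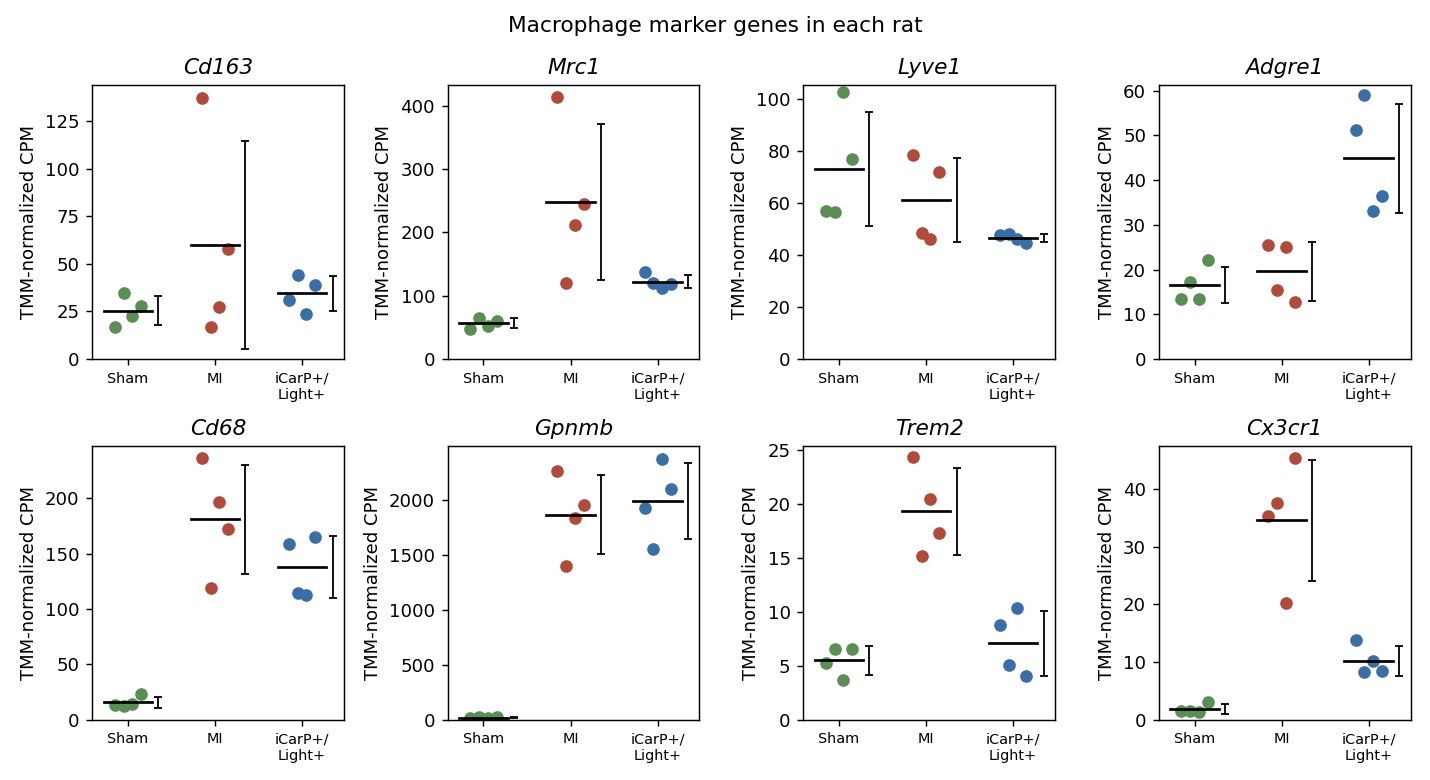
TMM-normalized CPM of the 8 tested macrophage marker genes (y axes, linear, from 0) in each rat of the 3 groups (x axes). Points are rats, the horizontal line is the mean and the bar is the SD (n = 4). Gpnmb was between 1398 and 2374 CPM in every ligated rat and at most 22.7 in Sham rats, while Adgre1 was highest in the 4 iCarP+/Light+ rats.

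Gpnmb (ENSRNOG00000008816, chromosome 4, 78694447 to 78715683, plus strand, in the build rn6 that the submitters' notes name), a transmembrane glycoprotein of lysosomes in macrophages loaded with debris, had the largest change of the 8 genes in both comparisons with Sham. Its level was 15.3, 22.7, 15.6 and 20.9 CPM in Sham rats 1, 2, 3 and 5. It was 2262, 1398, 1837 and 1957 CPM in MI rats 1, 3, 4 and 5, and 1930, 1550, 2374 and 2096 CPM in iCarP+/Light+ rats 1, 2, 4 and 5. Every ligated rat was far above every Sham rat, and the ranges of MI and iCarP+/Light+ rats overlapped. The log2 fold change of MI over Sham was 6.64 (standard error, SE, 0.24; edgeR adjusted p = 4e-09) and that of iCarP+/Light+ over MI 0.09 (SE 0.19, edgeR adjusted p = 0.805). The 95% interval of the second, -0.31 to 0.49 on the log2 scale, is for the difference between the group means in this TMM-scaled fit.

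Cd68 (ENSRNOG00000037563, chromosome 10, 56268720 to 56270640, minus strand), a lysosomal glycoprotein of phagocytes, was at 13.4, 12.2, 14.3 and 22.8 CPM in the Sham rats. Its level was 236, 119, 197 and 172 CPM in the MI rats and 159, 115, 112 and 165 CPM in the iCarP+/Light+ rats. The ligated rats were all above the Sham rats, with ranges that overlapped between the 2 ligated groups. The log2 fold change of MI over Sham was 3.53 (SE 0.26, edgeR adjusted p = 2.33e-07). That of iCarP+/Light+ over MI was -0.39 (SE 0.23, edgeR adjusted p = 0.327), with a 95% interval of -0.89 to 0.11. With library totals in place of TMM it was -0.66 and passed (edgeR adjusted p = 0.0475), where the median of all genes stood at -0.25.

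Adgre1 (ENSRNOG00000046254, chromosome 9, 9431860 to 9585865, minus strand) encodes F4/80, the adhesion receptor by which rodent macrophages are often stained. Unlike Cd68 it was not shown to differ between Sham and MI rats: the Sham rats had 13.5, 17.2, 13.5 and 22.1 CPM and the MI rats 25.6, 15.4, 25.0 and 12.7 CPM, ranges that overlapped. The iCarP+/Light+ rats had 51.2, 59.0, 33.1 and 36.4 CPM, each above all 8 Sham and MI rats. The log2 fold change of MI over Sham was 0.25 (SE 0.26, edgeR adjusted p = 0.428, 95% interval -0.32 to 0.81). That of iCarP+/Light+ was 1.19 over MI (SE 0.26, edgeR adjusted p = 0.00753) and 1.44 over Sham (SE 0.26, edgeR adjusted p = 0.000329). With library totals in place of TMM, Adgre1 also passed from Sham to MI (log2 fold change 0.82, edgeR adjusted p = 0.0121), where the median of all genes stood at 0.52.

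Trem2 (ENSRNOG00000013578, chromosome 9, 14611561 to 14618013, minus strand) encodes a lipid-sensing receptor that signals through the adaptor Tyrobp. It was at 5.28, 6.55, 3.72 and 6.56 CPM in the Sham rats, at 24.4, 15.2, 20.5 and 17.3 CPM in the MI rats and at 8.83, 5.08, 10.4 and 4.08 CPM in the iCarP+/Light+ rats. The MI rats were above all others, and the treated rats overlapped the Sham rats. It rose with MI by 1.80 on the log2 scale (SE 0.29, edgeR adjusted p = 0.000137). In iCarP+/Light+ rats it fell below MI by 1.45 on the log2 scale (SE 0.29, edgeR adjusted p = 0.00431), and against Sham the treated rats differed by 0.36 (SE 0.29, edgeR adjusted p = 0.301, 95% interval -0.28 to 0.99).

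Cx3cr1 (ENSRNOG00000018509, chromosome 8, 128740756 to 128754514, minus strand), the receptor for fractalkine on monocytes and many macrophages, was at 1.52, 1.57, 1.37 and 3.10 CPM in the Sham rats. The MI rats had 35.3, 37.6, 20.2 and 45.3 CPM, and the iCarP+/Light+ rats had 13.8, 8.22, 10.2 and 8.44 CPM. The 3 groups did not overlap, with treated rats between the Sham and the MI rats. The log2 fold change of MI over Sham was 4.19 (SE 0.32, edgeR adjusted p = 3.1e-07) and that of iCarP+/Light+ over MI -1.77 (SE 0.28, edgeR adjusted p = 0.00083). The treated rats stayed above Sham rats by 2.42 on the log2 scale (SE 0.31, edgeR adjusted p = 1.75e-05).

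Mrc1 (ENSRNOG00000018251, chromosome 17, 81352700 to 81433743, plus strand) encodes the mannose receptor CD206, which takes up glycoproteins. Its level was 47.0, 65.1, 52.8 and 60.4 CPM in the Sham rats, 414, 119, 212 and 244 CPM in the MI rats and 137, 121, 112 and 119 CPM in the iCarP+/Light+ rats. All ligated rats were above all Sham rats, while the treated rats overlapped the lowest MI rat. It rose with MI by 2.14 on the log2 scale (SE 0.29, edgeR adjusted p = 2.53e-05) and fell from MI to iCarP+/Light+ by 1.02 (SE 0.28, edgeR adjusted p = 0.0254). Without MI rat 1 the latter was not called (log2 fold change -0.65, edgeR adjusted p = 0.0647), and nor was it without iCarP+/Light+ rats 2, 4 or 5 (-1.01, -0.98 and -1.08, edgeR adjusted p = 0.0642, 0.0677 and 0.0501). The treated rats were above Sham by 1.12 (SE 0.28, edgeR adjusted p = 0.00309). The gene of the microRNA Mir511 lies inside Mrc1 on the same strand and was listed at 0 counts in every rat.

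Cd163 (ENSRNOG00000010253, chromosome 4, 156752082 to 156785467, plus strand), the receptor that clears haemoglobin bound to haptoglobin, was the gene whose result rested most on a single rat. Its level was 16.8, 34.5, 22.5 and 28.1 CPM in the Sham rats, 137, 16.7, 27.1 and 57.6 CPM in the MI rats and 31.2, 44.2, 23.6 and 38.8 CPM in the iCarP+/Light+ rats. The 3 groups overlapped, and MI rat 1 was above all other rats. For MI over Sham the log2 fold change was 1.23 (SE 0.51), with an edgeR adjusted p of 0.0495, just under the threshold. Without MI rat 1 it was 0.41 (edgeR adjusted p = 0.353). The call was also lost without MI rat 5, iCarP+/Light+ rats 1, 2 or 4 or any of the Sham rats, with log2 fold changes of 1.08 to 1.41 and edgeR adjusted p of 0.0504 to 0.120. That of iCarP+/Light+ over MI was -0.79 (SE 0.50, edgeR adjusted p = 0.365), and without MI rat 1 it was 0.03 (edgeR adjusted p = 0.978).

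Lyve1 (ENSRNOG00000026902, chromosome 1, 175663266 to 175676699, minus strand), a hyaluronan receptor of resident macrophages along vessels and of lymphatic endothelium, was the gene that did not rise in either ligated group. Its level was 56.7, 56.3, 102 and 76.7 CPM in the Sham rats, 78.2, 48.3, 46.3 and 71.7 CPM in the MI rats and 47.5, 48.0, 46.1 and 44.4 CPM in the iCarP+/Light+ rats. Sham and MI rats overlapped, and the treated rats lay close together below every Sham rat. The log2 fold change of MI over Sham was -0.26 (SE 0.21, edgeR adjusted p = 0.300, 95% interval -0.70 to 0.19) and that of iCarP+/Light+ over Sham -0.65 (SE 0.21, edgeR adjusted p = 0.0146). The latter did not pass without Sham rat 3 (log2 fold change -0.44, edgeR adjusted p = 0.0588) or with library totals in place of TMM (-0.33, edgeR adjusted p = 0.183, where the median of all genes was 0.33). Over MI it was -0.39 (SE 0.21, edgeR adjusted p = 0.262).

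Marco (ENSRNOG00000049303), a scavenger receptor for bacteria that is typical of lung alveolar macrophages, was listed at 0 counts in all 8 Sham and MI rats. It had 0, 7, 0 and 1 counts in iCarP+/Light+ rats 1, 2, 4 and 5, so only iCarP+/Light+ rat 2 was above the floor of 3 counts. The 6 lung markers (surfactant and club cell genes such as Sftpa1) summed to at most 0.0737 CPM in Sham and 0.378 CPM in MI rats, and to 0.501, 4.77, 0.610 and 1.55 CPM in iCarP+/Light+ rats 1, 2, 4 and 5. None of the 6 had enough counts to be tested, Sftpb and Scgb3a2 were at 0 in every rat, and the highest count of Sftpa1 was 67. The part of other tissue in these few Marco reads was not tested.

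**Figure D2:**
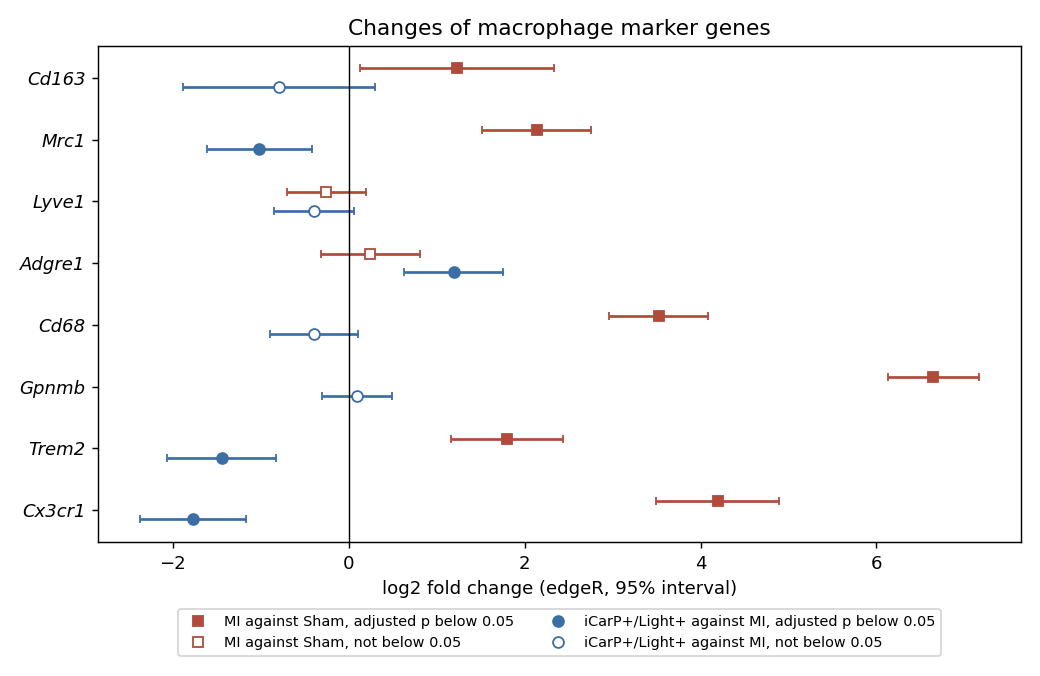
Log2 fold changes of the 8 tested genes (x axis, with 95% intervals from edgeR's fit) from Sham to MI (squares) and from MI to iCarP+/Light+ (circles), with filled symbols where the adjusted p was below 0.05. Gpnmb and Cd68 lie far to the right from Sham to MI (6.64 and 3.53) and from MI to iCarP+/Light+ at 0.09 and at -0.39, the latter with an interval that reaches -0.89, whereas Adgre1 lies at 0.25 and then at 1.19.

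Levels of different genes were set side by side only per kilobase of gene length. In Sham hearts Lyve1 led with 23.7 ± 7.05 CPM per kb (SD, n = 4), followed by Cd68 with 12.7 ± 3.90, Mrc1 with 10.8 ± 1.53 and Gpnmb with 8.07 ± 1.61. Cd68 and Mrc1 differed by less than the SD of Cd68. Cd163 was at 5.97 ± 1.78, Adgre1 at 5.08 ± 1.25 and Trem2 at 4.78 ± 1.16 CPM per kb, where Cd163 differed from Adgre1, and Adgre1 from Trem2, by less than their SDs. Cx3cr1 was last with 1.42 ± 0.61. In MI rats Gpnmb led with 808 ± 155 CPM per kb, ahead of Cd68 with 146 ± 39.7, Mrc1 with 47.3 ± 23.5, Cx3cr1 with 26.1 ± 7.92, Lyve1 with 19.8 ± 5.26, Trem2 with 16.7 ± 3.47 and Cd163 with 14.0 ± 12.8, while Adgre1 was last with 6.02 ± 2.01. From Mrc1 down, neighbours in that order differed by less than the larger of their SDs. In iCarP+/Light+ rats the order was Gpnmb with 862 ± 149, Cd68 with 111 ± 22.7, Mrc1 with 23.3 ± 2.04, Lyve1 with 15.1 ± 0.521, Adgre1 with 13.7 ± 3.74, Cd163 with 8.08 ± 2.11, Cx3cr1 with 7.65 ± 1.94 and Trem2 with 6.13 ± 2.59 CPM per kb. There Lyve1 and Adgre1 differed by less than the SD of Adgre1, while Cd163 differed from Cx3cr1, and Cx3cr1 from Trem2, by less than their SDs.

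In the ratio of each gene to Cd68 within a rat, the scaling of the library cancels apart from the 2 counts added to each value. From Sham to MI, Lyve1, Adgre1, Cd163, Trem2 and Mrc1 all fell relative to Cd68, with log2 differences of -3.76, -3.30, -2.69, -1.72 and -1.51, and Gpnmb rose by 3.12. Each of these 6 had no overlap between the groups, with p = 0.0286 in the two-sided exact permutation test, the smallest that 4 rats against 4 allow (adjusted p = 0.0400 over 14 such tests). Cx3cr1 kept closest to Cd68, with a log2 difference of 0.61 that did not pass the exact permutation test (p = 0.200, adjusted p = 0.233). In iCarP+/Light+ rats, against MI, Adgre1 rose relative to Cd68 by 1.58 and Gpnmb by 0.47, while Cx3cr1 and Trem2 fell, with differences of -1.36 and -1.14, each without overlap (exact permutation p = 0.0286, adjusted p = 0.0400). The ratio of Mrc1 differed by -0.51 (exact permutation p = 0.0571, adjusted p = 0.0727), that of Cd163 by -0.01 (exact permutation p = 0.971) and that of Lyve1 by 0.01 (exact permutation p = 0.886). The 7 ratios share Cd68 as their denominator, so they are not independent of each other. Cd68 itself rose by 3.53 on the log2 scale from Sham to MI, so a gene that rose less or stayed level falls in this ratio. Mrc1 and Trem2 fell relative to Cd68 while their own levels rose.

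**Figure D3:**
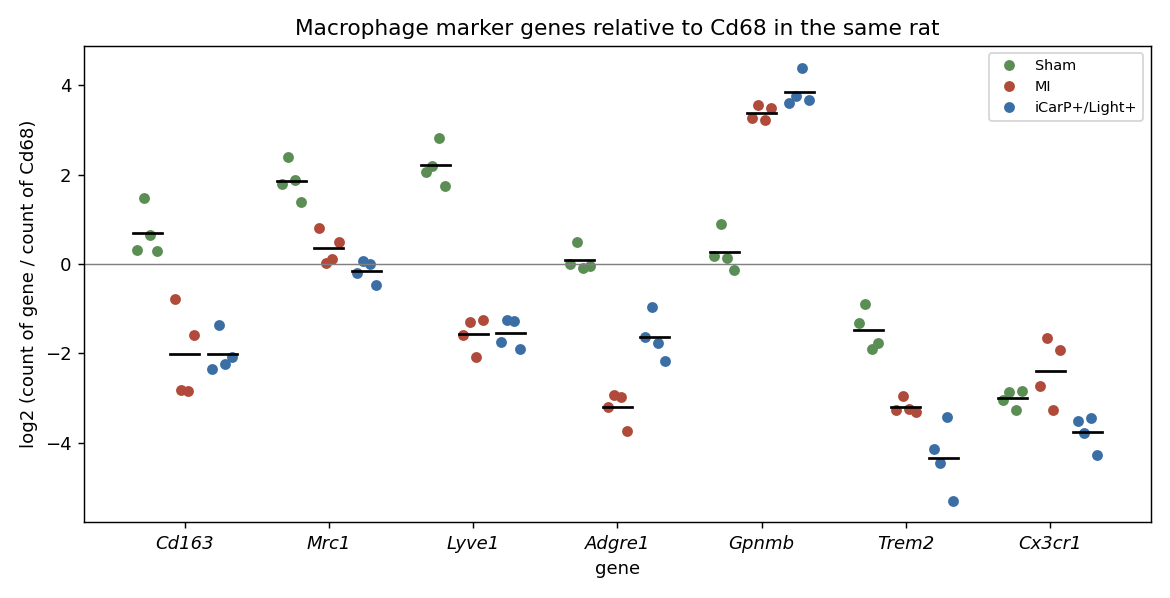
Log2 ratio of the count of each of 7 genes to that of Cd68 in the same rat (y axis), for Sham, MI and iCarP+/Light+ rats. Points are rats and lines are means of 4. Adgre1 averaged 0.09 in Sham rats, -3.21 in MI rats and -1.63 in treated rats, and Gpnmb averaged 0.27, 3.39 and 3.85.

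Other macrophage genes were counted from lists of resident, recruited, pan-myeloid and lipid-handling genes. The counts stand against 30.2% higher and 33.6% lower of all genes tested from Sham to MI, 11.6% and 2.01% from MI to iCarP+/Light+, and 33.5% and 33.0% from Sham to iCarP+/Light+. Of 16 tested genes of resident macrophages, 7 rose and 2 fell from Sham to MI (median log2 fold change 0.49), and 0 rose and 7 fell from MI to iCarP+/Light+ (median -0.84). Of these 16, 0 were higher also at an unadjusted p below 0.05 in edgeR, in DESeq2 and in limma-voom. Those that rose with MI included Pf4 (20.2 ± 5.52 to 127 ± 78.3 CPM, SD, n = 4) and Mertk (11.1 ± 1.14 to 60.3 ± 23.7 CPM), a receptor for engulfing dead cells, and those that fell were Gas6, a ligand of Mertk, and the growth factor Igf1. The 7 genes that fell in iCarP+/Light+ rats were Ms4a7, the lectin Clec10a, the folate receptor Folr2, the scavenger receptor Stab1 and the complement genes C1qa, C1qb and C1qc, of which the last 5 were named after their values were seen. Clec10a went from 37.3 ± 13.9 CPM in MI to 9.18 ± 1.77 CPM in iCarP+/Light+ rats (log2 fold change -2.02, SE 0.26, edgeR adjusted p = 0.000202), below its 26.7 ± 5.47 CPM in Sham. Without MI rat 1 the median from Sham to MI was 0.32, and from MI to iCarP+/Light+ 6 of these 16 genes fell, with a median of -0.42. With library totals in place of TMM these 2 medians were 1.08 and -1.10.

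Of 17 tested genes of recruited monocytes and macrophages, 15 rose and 0 fell from Sham to MI, with a median log2 fold change of 4.25 (0 fell also at an unadjusted p below 0.05 and in DESeq2 and limma-voom). Spp1, osteopontin, went from 4.31 ± 1.22 CPM (SD, n = 4) in Sham to 9651 ± 4197 CPM in MI rats, and its 4871 ± 2377 CPM in iCarP+/Light+ rats were not called different from MI (log2 fold change -0.99, edgeR adjusted p = 0.0968, given after its values were seen). From MI to iCarP+/Light+, 7 of the 17 rose and 0 fell, with a median of 0.22 (2 fell at an unadjusted p below 0.05 in edgeR, 1 in DESeq2 and 0 in limma-voom). Without MI rat 1, 6 rose and the median was 0.40, and with library totals 6 rose, 2 fell and the median was -0.07. The lectins Clec4e and Clec4d, which neutrophils also express, rose most, from 23.0 ± 9.17 to 369 ± 95.9 CPM and from 79.2 ± 19.6 to 643 ± 178 CPM. Thbs1, Hmox1 and Chi3l1 were among the others, named after their values were seen. From Sham to iCarP+/Light+, 15 of the 17 rose and 1 fell, with a median of 5.25, and of the 16 resident genes 6 rose and 8 fell, with a median of -0.56. With library totals, 6 of the resident genes rose and 6 fell in that comparison, with a median of -0.25.

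Of 14 tested pan-macrophage and myeloid genes, 13 rose and Cd4 fell from Sham to MI (median log2 fold change 3.03), and the same numbers held from Sham to iCarP+/Light+ (median 3.61). In iCarP+/Light+ against MI rats, 6 rose and Lgmn, a lysosomal protease, fell (median 0.45). Tyrobp, the adaptor of Trem2, rose from 409 ± 119 to 819 ± 191 CPM (SD, n = 4; log2 fold change 1.00, edgeR adjusted p = 0.00578), while Trem2 itself fell, and it is named here after its values were seen. Neutrophils also express Tyrobp, Cd53 and Fcer1g, and the neutrophil markers rose in the same rats (summed level 578 to 978 CPM in MI, 3484 to 9501 in treated rats). The part of neutrophil RNA in these rises was not tested. Cd53 and Fcer1g rose as well, from 216 ± 33.8 to 651 ± 195 CPM and from 284 ± 98.2 to 637 ± 172 CPM. With library totals in place of TMM, 4 of the 14 rose and 6 fell.

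Of 20 lipid-associated and lysosomal genes that accompany Trem2 in macrophages, 12 rose and 4 fell from Sham to MI (median log2 fold change 1.37). Lgals3 was among those that rose (39.4 ± 4.85 to 704 ± 188 CPM, SD, n = 4), and those that fell included Lpl and Fabp4, which muscle and vessels also express. In iCarP+/Light+ against MI rats, 4 rose and 0 fell (median 0.05): the lipid transporter Abca1 (26.1 ± 3.73 to 105 ± 28.9 CPM), the lipid droplet gene Plin2 (619 ± 89.0 to 2118 ± 889 CPM), and Itgax and Tfeb, named after their values were seen. At an unadjusted p below 0.05 in edgeR 1 of the 20 fell, as did 1 in DESeq2 and 0 in limma-voom. From Sham to iCarP+/Light+, 13 rose and 4 fell (median 1.37). With library totals in place of TMM, 15 rose and 2 fell from Sham to MI (median 1.94). From MI to iCarP+/Light+, 5 rose and 0 fell without MI rat 1 (median 0.14), and 4 rose and 3 fell with library totals (median -0.22). Spp1 and Lgals3 stand in both this list and that of recruited genes.

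Markers of other cells moved with the groups. Of 10 tested neutrophil markers, 9 rose from Sham to MI and all 10 rose from MI to iCarP+/Light+ (median log2 fold change 3.72), and the sum over the 12 listed was 51.9 to 87.8 CPM in Sham rats, 578 to 978 in MI rats and 3484 to 9501 in treated rats. Mpo, a marker of immature neutrophils, had at most 1 count in any rat. The part of neutrophil RNA in the rise of Adgre1 and in the falls of Mrc1, Trem2 and Cx3cr1 was not tested. Of 6 lymphatic endothelium markers, which bear on Lyve1, 2 rose and 1 fell with MI (30.2% and 33.6% of all genes tested) and 1 rose from MI to iCarP+/Light+ (11.6% of all). Prox1, the factor that defines lymphatic endothelium and is also made in heart muscle cells, went from 35.6 ± 5.02 CPM (SD, n = 4) in Sham rats to 3.66 ± 1.86 in MI rats and 4.93 ± 1.90 in treated rats, and Pdpn from 10.1 ± 0.998 to 145 ± 43.2 and 288 ± 110 CPM. The sum over the 6 had a median of 97.9 CPM in Sham, 225 in MI and 348 in treated rats, and Pdpn made up most of it in ligated rats. The part of lymphatic endothelium in the level of Lyve1 was not tested. Of 8 markers of dendritic and NK cells, 1 rose and 3 fell with MI (1 fell without MI rat 1 and 0 with library totals), and 1 rose and 0 fell from MI to iCarP+/Light+ (1 fell at an unadjusted p below 0.05 in edgeR, 1 in DESeq2, 0 in limma-voom, 1 without MI rat 1 and 1 with library totals). The cardiomyocyte markers, 9 tested, had 0 calls in either direction from MI to iCarP+/Light+ in edgeR, DESeq2 and limma-voom, and 0 at an unadjusted p below 0.05 (median 0.01).

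**Figure D4:**
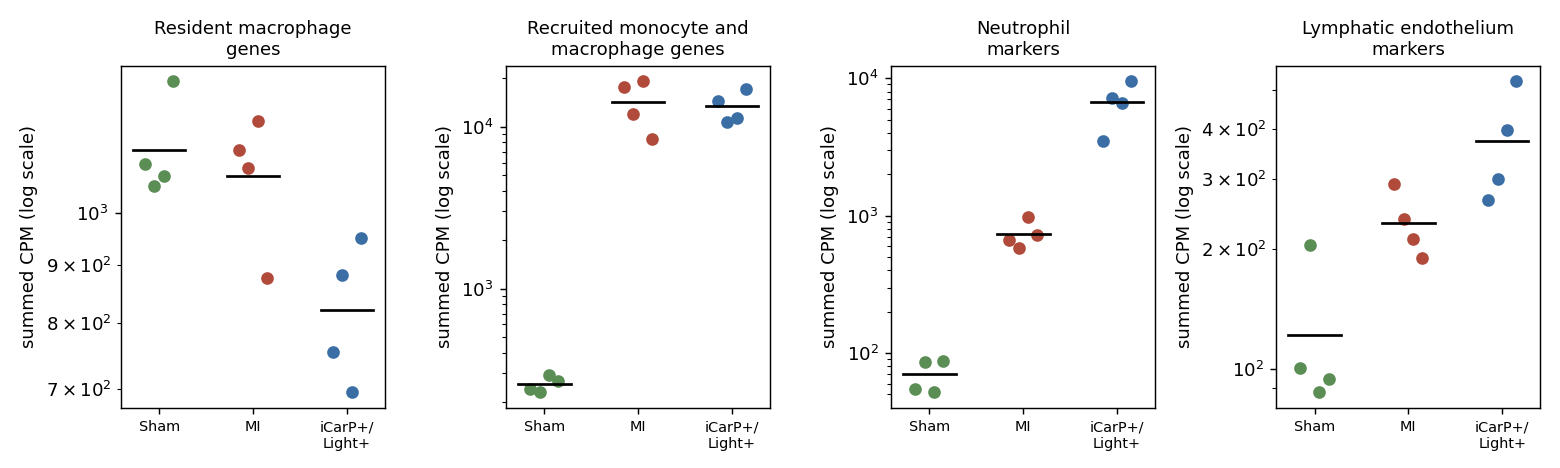
Summed CPM (y axes, log scale) over the listed genes of resident macrophages, recruited monocytes and macrophages, neutrophils and lymphatic endothelium in each rat, with lines at the means of 4. Neutrophil markers summed to 578 to 978 CPM in MI rats and to 3484 to 9501 in treated rats, and the resident genes to 876 to 1204 and to 695 to 951 CPM.

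For each tested gene, the protein-coding genes with the most alike pattern over the 12 rats were found by Pearson's r of log2 CPM among 10714 genes with a mean of at least 5 CPM. The rats fall into 3 groups, so these values mostly describe the shared difference between groups. Gpnmb was most like Mmp12, a macrophage elastase (r = 0.996), and Hk3, a hexokinase of blood cells (r = 0.994). Cd68 was most like Erlin1 and RGD1304694 (r = 0.996 and 0.995), Mrc1 most like Coro7 and Eps8 (r = 0.987 and 0.980), and Cx3cr1 most like Ampd2 and Gm2a (r = 0.980 and 0.976). Trem2 was most like Tmem144 and Sae1 (r = 0.974 and 0.946) and Lyve1 most like Vps41 (r = 0.936). Adgre1 was most like Noct and Ccl4, a chemokine (r = 0.898 and 0.895), and both were highest in iCarP+/Light+ rats, Ccl4 with 132 CPM on average against 10.5 in MI and 2.74 in Sham. Cd163 had the loosest match, Fam172a and Tgfbrap1 (r = 0.849 and 0.830).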

How the data were processed

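RNA-seq of left ventricle from 12 rats (4 Sham, 4 MI, 4 iCarP+/Light+) was used. The authors deposited raw counts of reads per gene, not normalized, with Ensembl identifiers, symbols, positions and lengths. The submitters' processing notes name HISAT2, featureCounts and rn6. Versions, the annotation release and the strand setting are not given in the sources used here, so reads of genes that overlap on opposite strands could not be told apart. Groups came from the labels, and all 12 columns of counts were used.

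Totals were 14064414 to 17136958 counts per rat, and floors and spreads cover counting error and these rats only. Within groups, the chi-square per gene of each of 18 pairs of rats was 14.8 to 119, where counting noise gives about 1, so each rat was counted once. Genes were kept by filterByExpr (minimum count 10) in edgeR 4.0.16 (R 4.3.3), scaled by TMM and compared with the quasi-likelihood test in 1 fit of all 12 rats, with Benjamini-Hochberg adjustment over 15101 genes and a threshold of 0.05. Intervals are 95%. Ratios to Cd68 used log2 of scaled counts plus 2 and a two-sided exact permutation test, adjusted over 14 tests. CPM per kb used the length in the count table.

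The genes and lists were chosen with earlier results of these data known. From each other list, at most 4 genes per comparison were named, those with the 2 highest and 2 lowest log2 fold changes among genes called with a mean of at least 5 CPM, and exceptions are marked. A few genes that these rules would name are not reported here. Listed symbols without a line of their own were Timd4, Cbr2, Ccr2, Mpeg1, Itgam, Ttn and Klrb1a, not analysed here, and for 1 other symbol, Chil1, the RefSeq symbol Chi3l1 was used. Promoters and motifs came from RefSeq, build GRCr8, in which all 10 symbols matched (Marco on chromosome 13, but on 16 in the count table), and no coordinates were converted.

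Alternatives were DESeq2 1.42.0 and its size factors, library totals alone, limma-voom (limma 3.58.1), 2 other filters on low counts, no mitochondrial genes, only the compared groups, a replicate block, a pseudocount of 0.5 for the ratios, and leaving out each rat. For the other lists, the fits without MI rat 1 and with library totals were added after the data were seen. The edgeR steps were tested on simulated data. Figures were drawn with matplotlib 3.10.9.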

Additional observations from a re-analysis of the deposited data

Results flagged for a closer look

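Cx3cr1 in Sham rat 5 lay apart from the other Sham rats. It was at 3.10 CPM against 1.37 to 1.57 CPM in the other 3, and its gap to the nearest rat was 0.834 of the whole range of the group, above the 95% limit of Dixon's test for 4 samples. This was 1 of 24 groups of 4 rats looked at over the 8 genes, of which chance gives about 1.2, or 1 in 20. Even so, 3.10 CPM was below the lowest level in any ligated rat, 8.22 CPM.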

How the results depend on the processing

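The counts of called genes held within 1.5 times under most alternatives. Leaving out each rat in turn gave 5 to 6 higher and 0 to 0 lower genes from Sham to MI, 1 to 1 higher and 2 to 3 lower for iCarP+/Light+ over MI, and 5 to 5 higher and 0 to 1 lower for iCarP+/Light+ over Sham, the 0 without Sham rat 3. With library totals alone, 5 genes fell from MI to iCarP+/Light+, Cd68 and Lyve1 in addition, and 0 fell from Sham to iCarP+/Light+. That scaling moved the median of all genes to 0.52 for MI over Sham, -0.25 for iCarP+/Light+ over MI and 0.33 for iCarP+/Light+ over Sham, and the share of higher genes among all calls from 47.3 to 73.5%, from 85.2 to 30.7% and from 50.3 to 64.7%. Over all genes, 304 were lower for iCarP+/Light+ over MI in edgeR with TMM, 2722 with library totals and 763 in DESeq2, where 70.8% of the calls were higher. It turned Lyve1 from Sham to MI to 0.34 and Gpnmb from MI to iCarP+/Light+ to -0.17. Gpnmb in that comparison, near 0 throughout, was also negative without MI rat 3 (-0.024), iCarP+/Light+ rat 4 (-0.0047) or rat 5 (-0.0075), with a range of -0.024 to 0.20 over the 12 rats left out. Cd163 ranged from -1.11 to 0.026 there, the 0.026 without MI rat 1.

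Same-numbered rats are different animals, and the correlation of their deviations was -0.15 to 0.065 over 9 pairs, so the numbers do not pair them. A replicate block left 0 genes higher from MI to iCarP+/Light+ (Adgre1 1.03, edgeR adjusted p = 0.0675) and 0 lower from Sham to iCarP+/Light+, where Lyve1 was no longer called. The call of Cd163 from Sham to MI was lost with limma-voom (0.83), with only the compared groups (1.36), with the block (1.18) and in 9 of 12 fits that left out a rat (0.41 to 1.55 over all 12). That of Mrc1 from MI to iCarP+/Light+ was lost with only the compared groups (-1.06) and without MI rat 1 or iCarP+/Light+ rats 2, 4 or 5 (-0.65 to -1.25 over all 12). With library totals, 9 resident genes rose and 1 fell from Sham to MI, and 2 recruited, 6 pan-myeloid and 3 lipid-associated genes fell from MI to iCarP+/Light+. The causes were not tested. Every ratio to Cd68 kept its sign or stayed within the spread between rats.

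Limits are the 4 rats per group, the depth, at which Marco and the lung markers could not be compared, and the bulk tissue, in which the number of macrophages was not measured. The rise of neutrophil markers and the loss of cardiomyocyte markers coincide with the groups.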
